A study of Homo sapiens with 4 samples.

Results

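MME and ACE are genes for zinc metallopeptidases that sit in the plasma membrane with the active site facing outwards. They were taken by name from the table, as 2 of its 785 gene probes. Both were selected on their values in the knockout to wild-type comparison of these same samples, so their differences between genotypes are described here and carry no test. RNA was counted with NanoString probes, which are tallied as single molecules without amplification, in HAP1 cells, a near-haploid line that grows attached and was derived from a human chronic myeloid leukaemia line. The wild type was represented by lines 1 and 7, which the labels tie to different supplier batches, and the MATR3 knockout by clones 1 and 5 from the same supplier, with no treatment named for any of them. MATR3 encodes matrin 3, an RNA- and DNA-binding protein of the nuclear matrix. MATR3 is not analysed here, so the values do not check the genotype labels. Each group held n = 2 samples, 1 per line, and the spread given is that between lines. Where values come as a pair without further names, the wild-type pair is line 1 then line 7, and the knockout pair is line 1 then line 5.

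Neprilysin, the product of MME, is also known as CD10 or the common acute lymphoblastic leukaemia antigen, a surface marker of early lymphoid cells that is also abundant in kidney, and it cuts short peptides such as enkephalins, substance P, natriuretic peptides and amyloid beta. Angiotensin-converting enzyme, the product of ACE and also called CD143, removes dipeptides from the end of its substrates, forming angiotensin II from angiotensin I and inactivating bradykinin. It is best known from the endothelium of the lung and as the target of a class of blood pressure drugs. Their substrates overlap, since both can degrade bradykinin and substance P.

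The sequences before the start sites are shown because both genes had higher values in the knockout lines, so that the letters at their starts can be set side by side. RefSeq on GRCh38.p14 listed 4 starts for MME, all on the plus strand of chromosome 3, and 2 for ACE, both on the plus strand of chromosome 17. Each line below gives the 250 bases before the most upstream of the listed starts, chr3:155079422-155079671 for MME and chr17:63476811-63477060 for ACE, 5′ to 3′ with motif matches in capitals.
MME: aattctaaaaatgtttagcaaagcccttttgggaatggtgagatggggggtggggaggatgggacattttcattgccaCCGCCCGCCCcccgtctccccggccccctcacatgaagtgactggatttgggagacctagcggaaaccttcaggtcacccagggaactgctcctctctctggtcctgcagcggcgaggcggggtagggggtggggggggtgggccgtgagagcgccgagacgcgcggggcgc
ACE: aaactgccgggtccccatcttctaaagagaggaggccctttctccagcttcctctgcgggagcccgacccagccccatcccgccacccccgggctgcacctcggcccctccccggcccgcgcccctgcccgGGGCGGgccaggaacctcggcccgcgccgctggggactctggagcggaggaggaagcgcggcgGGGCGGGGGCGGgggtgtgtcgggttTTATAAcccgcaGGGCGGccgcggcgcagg

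Both strands were searched for the GC box GGGCGG, the CCAAT box CCAAT and the TATA box TATAA. The MME window held 2 overlapping GC boxes on the minus strand, starting 172 and 168 bases before the start, and no match to either of the other motifs. The ACE window held 4 GC boxes on the plus strand, starting 119, 56, 50 and 18 bases before the start. It also held TATAA at 29 bases, overlapping a minus-strand match at 30 bases before the start. Over all 35116 RefSeq windows of this length, 42.6% held a GC box, 24.3% held at least 2 and 7.63% at least 4, while 18.9% held a TATA box and 32.0% a CCAAT box. The GC content was 63.2% for MME and 75.2% for ACE. None of the other 3 MME starts had a TATA box in its window. MME starts 2 and 3, in order along the strand, each had 2 GC boxes. Start 3 also had 1 CCAAT box, and start 4 had no match to any of the motifs. The second ACE start had 1 CCAAT box and neither a TATA box nor a GC box. These matches describe the letters in the windows and say nothing about which factor binds, and the counts do not tell from which start the RNA came.

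MME was present in the wild type and several-fold more abundant in both knockout lines. It stood at 94.9 normalised counts in wild-type line 1 and 108 in wild-type line 7, against 978 in knockout line 1 and 563 in knockout line 5. A normalised count is the number of molecules counted, multiplied by 1 scaling factor per sample. Both knockout values lay far above both wild-type values, and the lower knockout line was 5.22 times the higher wild-type line. The mean of the knockout pair, 771 ± 294, was 7.60 times that of the wild-type pair, 101 ± 9.10 (SD, n = 2). On the log2(value + 1) scale the difference was 2.86 ± 0.21 (SE of the fit across all genes). Only VCAM1 had a larger increase among the 514 tested genes, those with a mean of 20 or more. In that fit 6.23% of genes were called higher in the knockout and 1.95% lower (limma, adjusted p under 0.05), a background that is given here for scale only, since MME was picked from it.

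The counting precision behind MME was high. The deposited values correspond to 91 and 126 molecules for the wild-type pair and to 879 and 541 for the knockout pair. The exact 95% Poisson intervals, which cover counting error only, ran from 76.4 to 117 and from 89.8 to 128 normalised counts for the wild-type pair. For the knockout pair they ran from 915 to 1045 and from 517 to 612, clear of the wild type and of each other. As a share of all gene counts, MME took 0.0196% and 0.022% of the wild-type pair, and 0.196% and 0.109% of the knockout pair. Its values were 3.70 and 5.10 times the background limit for the wild-type pair and 50.1 and 26.0 times for the knockout pair. That limit is the mean plus 2 SD of the sample's negative control probes, between 19.5 and 25.7 normalised counts.

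The knockout lines differed from each other in MME more than the wild-type lines did. Knockout line 1 was 1.74 times knockout line 5, a log2 difference of 0.80, whereas wild-type line 7 was 1.14 times wild-type line 1. Among the 280 tested genes with a mean of 100 or more, MME had the fourth largest difference between the knockout lines in either direction, and the median size was 0.10. Those ahead of it were IFNA6, HERC5 and IFITM3, all higher in knockout line 1, with log2 differences of 1.35, 0.98 and 0.85. IFITM1 and PSMB8 came next with the opposite direction, at -0.68 and -0.66. Each line is 1 sample, so these are descriptions with no test. The size of the MME difference between genotypes moved with the line used, being 2.46 on the log2 scale without knockout line 1 and 3.26 without knockout line 5.

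**Figure D1:**
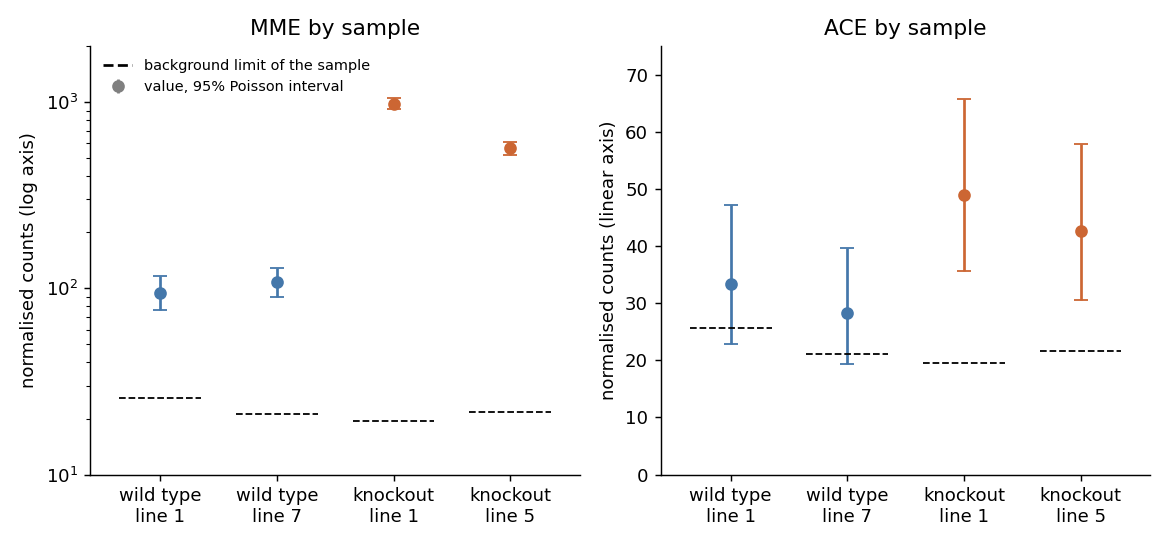
Normalised counts of MME (left, log axis) and ACE (right, linear axis) in each wild-type and MATR3 knockout line, with exact 95% Poisson intervals for counting error and a dashed background limit per sample. MME was at 94.9 and 108 in the wild type against 978 and 563 in the knockout, while the ACE intervals of all 4 samples overlap.

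ACE was a weakly counted gene, and its values were moderately higher in the knockout lines. It had 33.4 and 28.2 normalised counts for the wild-type pair, against 49.0 and 42.7 for the knockout pair. The groups did not overlap, but the lower knockout value was only 1.28 times the higher wild-type value. The means were 30.8 ± 3.63 and 45.8 ± 4.45 (SD, n = 2), a ratio of 1.49. The log2 difference was 0.56 ± 0.30 (SE of the fit across all genes), which is 1.85 times its SE and the 29th largest increase of the 514 genes.

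The depth limits what can be said of ACE. Its values rest on 32 and 33 molecules for the wild-type pair and on 44 and 41 for the knockout pair. The Poisson intervals ran from 22.8 to 47.1 and from 19.4 to 39.7 normalised counts for the wild-type pair, and from 35.6 to 65.7 and from 30.6 to 57.9 for the knockout pair. All 4 intervals overlapped. The value lay above the background limit in every sample, at 1.30 and 1.34 times that limit for the wild-type pair and 2.51 and 1.97 times for the knockout pair. Both wild-type intervals reached below the limit. After subtraction of each sample's mean negative control, the ratio of knockout to wild-type means became 1.70 for ACE and 8.23 for MME, so the background weighs more on ACE.

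Non-overlapping groups were common in this table, which sets the scale for ACE. Knockout and wild-type values did not overlap in 53.1% of the 514 tested genes, with the knockout higher in 22.4% and lower in 30.7%. Genes as weak as ACE mostly leaned the other way. Of the 173 tested genes with a mean under 50, 29 had a higher mean log2 value in the knockout, and 10 (5.78%) were higher without overlap. Their median log2 difference from the wild-type mean was -0.17 in knockout line 1 and -0.63 in knockout line 5, against 0.66 and 0.46 for ACE. Knockout line 5 also had the fewest genes above its background limit, 409 against 448 to 558 in the other lines, and the part of this in the values of weak genes was not tested. ACE had the sixth largest increase of these 173 genes, behind OAS2, C5, PRDM1, NOS2 and PLAUR, whose log2 differences ran from 0.57 to 0.63. ACE was chosen with this comparison known, so this rank is a description.

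**Figure D2:**
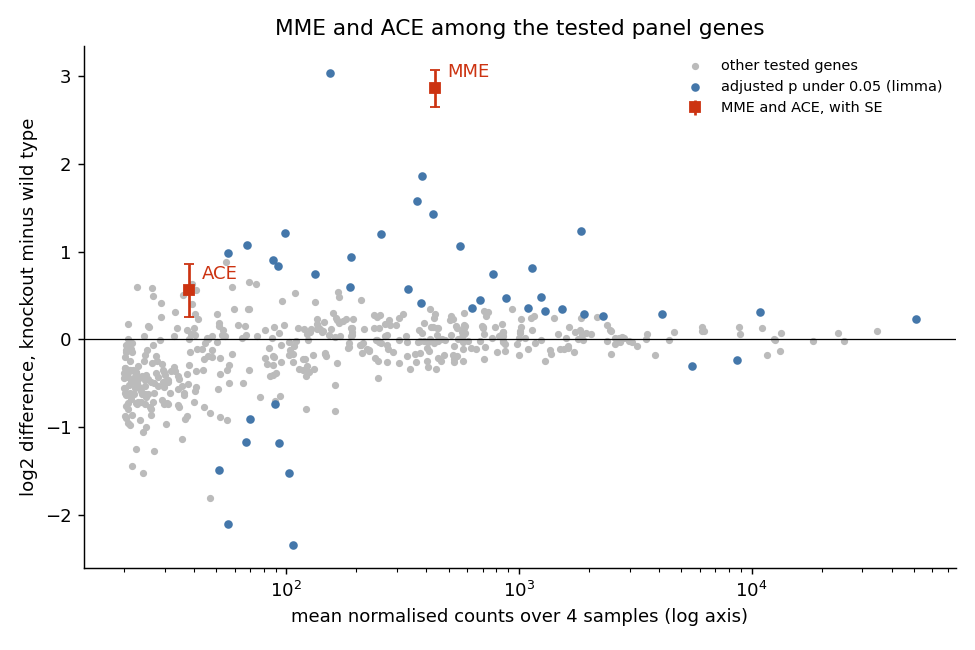
Log2 difference between knockout and wild type against the mean normalised count (log axis) for the 514 tested genes, with MME and ACE as squares with SE and genes past an adjusted p of 0.05 in blue. MME lies at 2.86 with 1 gene above it, and ACE lies at 0.56 in the cloud of weakly counted genes, most of which are below 0.

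MME and ACE therefore had the same direction and different sizes, and their profiles over the 4 samples were not close by a distance that includes size. Both were highest in knockout line 1 and next in knockout line 5, while the wild-type lines had opposite orders. Likeness was measured as the root mean square distance between log2 profiles, each centred on its own mean over the 4 samples. ACE lay 1.18 from MME, the 24th nearest of the other tested genes, and the median gene was 1.49 away. The gene nearest to MME was VCAM1, an adhesion molecule for leukocytes, at a distance of 0.30. VCAM1 had 28.2 and 37.7 normalised counts for the wild-type pair and 274 for either knockout line, so it lacked the difference between knockout lines seen in MME. IFITM1, an interferon-inducible membrane protein, LITAF, a regulator of lysosomal sorting, PSMB8, an immunoproteasome subunit, and MARCKS, a substrate of protein kinase C, followed at 0.72 to 0.87. IFITM1 and PSMB8 were highest in knockout line 5, whereas MME was highest in knockout line 1.

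The genes nearest to ACE were CGAS, the cytosolic DNA sensor, and NOS2, the inducible nitric oxide synthase, both at a distance of 0.05. CGAS had 278 and 260 normalised counts for the wild-type pair and 431 and 372 for the knockout pair, the same order of samples as ACE. NOS2 was as weakly counted as ACE, at 32.3 and 28.2 against 51.2 and 40.6. SIGIRR, a negative regulator of interleukin-1 receptor signalling, IRAK4, a kinase of that pathway, and TAP1, a peptide transporter for MHC class I, followed at 0.08 to 0.10. The median gene was 0.36 from ACE. In all, 44 genes lay within 0.20 of ACE, against 0 within that distance of MME. Since the distance includes the size of the change, these numbers do not compare the order of samples alone.

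**Figure D3:**
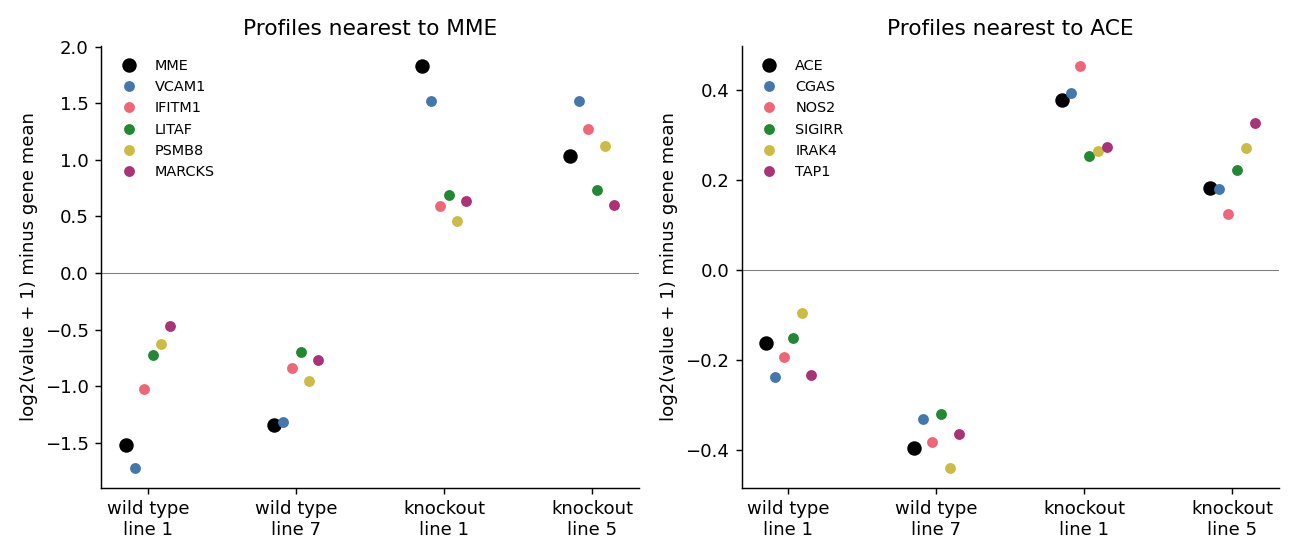
Centred log2 values in each wild-type and knockout line for MME (left) and ACE (right), in black, with their 5 nearest tested genes; the vertical scales differ between panels. VCAM1 follows MME at a distance of 0.30, and CGAS and NOS2 follow ACE at 0.05.

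The position of the genes on their chromosomes was compared through the order of tested panel genes in RefSeq. The 3 nearest on each side of MME were ACKR4, IL20RB and PIK3CB before it and IL12A, TNFSF10 and PIK3CA after it. Their log2 differences ran from -0.45 to 0.34, and the limma adjusted p lay between 0.0751 for PIK3CA and 0.989. The other 38 tested genes of chromosome 3 had a median of -0.13, and 1 of them passed the threshold, where 8.17% of all tested genes did. Around ACE, the neighbours TBX21, TRIM25, RPS6KB1, MAP3K3, ERN1 and DDX5 ran from -0.46 to 0.23, with limma adjusted p from 0.426 to 0.894. The other 33 tested genes of chromosome 17 had a median of -0.02, and 3 of them passed, a share close to that over all genes.

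Other peptidases of the cell surface or outside the cell were few on the panel. Of 58 listed genes, 11 were measured under their own symbol and 5 tested. Of these 5, 0 passed an adjusted p of 0.05 with limma or with edgeR, with 1 at an unadjusted p under 0.05 in limma. The shared probe TPSAB1/B2 covers the listed TPSAB1 but is outside these counts. Its log2 difference was -0.87 ± 0.35 (SE; limma unadjusted p = 0.0289, adjusted p = 0.188). Over all 514 genes 8.17% passed. ANPEP, a zinc aminopeptidase also known as CD13, had 24.0 and 24.8 normalised counts for the wild-type pair and 24.5 and 14.6 for the knockout pair, near the background limit. FURIN, the proprotein convertase, had values of 166 and 133 against 170 and 154 (log2 difference 0.12 ± 0.17, SE). The plasminogen activator PLAT had a log2 difference of -0.20 ± 0.33 and PLAU of -0.64 ± 0.33 (SE). GZMA, a granule protease of cytotoxic lymphocytes, averaged 32.5 ± 1.22 against 15.7 ± 6.07 (SD, n = 2), and its log2 difference was -1.05 ± 0.42 (SE), which did not pass (limma adjusted p = 0.188). Its knockout values were near or below background, at 20.03 in line 1 and 11.45 in line 5 against limits of 19.5 and 21.7. Without knockout line 1 the log2 difference of GZMA was -1.43, which rests on that value of line 5. The median of the 5 genes was -0.35, against -0.04 over all tested genes.

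Among peptidases inside the cell, 15 of 42 listed genes were measured and 10 tested. Of these 10, 20% passed, against 8.17% of all tested genes. Their median log2 difference was 0.14, against -0.04 over all tested genes. PSMB8 and PSMB9, catalytic subunits of the immunoproteasome, rose, 0 genes fell and 8 did not pass. PSMB10, the third such subunit, was among the 8, averaging 36.4 ± 10.2 normalised counts in the wild type against 25.3 ± 0.431 in the knockout (SD, n = 2; log2 difference -0.48 ± 0.35, SE; limma adjusted p = 0.46). PSMB8 had 199 and 159 normalised counts for the wild-type pair and 424 and 672 for the knockout pair (log2 difference 1.58 ± 0.19, SE; limma adjusted p = 0.000274). PSMB9 was at 62.6 and 67.6 against 95.7 and 144 (0.84 ± 0.23, SE; limma adjusted p = 0.0466), and it did not pass without knockout line 5 (adjusted p = 0.346). The knockout values lay above the wild type without overlap in PSMB8 and PSMB9, as in 22.4% of all tested genes, and below it without overlap in PSMB10, as in 30.7%. CTSZ, a lysosomal carboxypeptidase, had a log2 difference of 0.15 ± 0.10 (SE; limma adjusted p = 0.426). The list was not exhaustive, and the tested peptidase genes THOP1, PRCP and LTA4H were outside it. Their log2 differences were -0.03 ± 0.07, 0.34 ± 0.10 and -0.11 ± 0.09 (SE), with limma adjusted p of 0.838, 0.072 and 0.506.

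The list for the angiotensin, kinin and neuropeptide system, which also holds genes of nitric oxide and chemoattractant signalling, gave 9 measured and 4 tested genes of 39, with a median log2 difference of -0.35. APP, the precursor of the amyloid beta peptide that neprilysin degrades, fell. It had 6317 and 5954 normalised counts for the wild-type pair and 4904 and 5025 for the knockout pair. The knockout was thus lower without overlap, as in 30.7% of all tested genes. The log2 difference of APP was -0.30 ± 0.06 (SE; limma adjusted p = 0.0104), the smallest in size of those called in these lists. APP was the only 1 of the 4 to pass, where 8.17% of all tested genes did. AGT, the precursor of angiotensin, had 31.3 and 42.8 for the wild-type pair and 37.8 and 14.6 for the knockout pair, so the groups overlapped (log2 difference -0.61 ± 0.45, SE). BDKRB1, a kinin receptor, overlapped as well, at 18.8 and 35.9 against 34.5 and 17.7. GUCY1B1, a subunit of soluble guanylate cyclase, was at 97.0 and 97.5 for the wild-type pair, at 101 for knockout line 1 and at 53.1 for knockout line 5. Without knockout line 1, AGT (limma adjusted p = 0.022) and GUCY1B1 (0.0391) passed as well. Without knockout line 5, their log2 differences were 0.05 and 0.06.

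Of 19 listed peptidase inhibitors 2 were measured. TIMP2, which inhibits matrix metalloproteinases, was the only tested one, with 176 and 178 normalised counts for the wild-type pair and 223 and 263 for the knockout pair. Its log2 difference of 0.45 ± 0.14 (SE; limma adjusted p = 0.0852) did not pass, and edgeR gave an adjusted p of 0.0773. It passed without knockout line 1 (limma adjusted p = 0.0483). SERPINA1 was below the filter. DPP4, ECE1 and TAC1 are not analysed here.

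**Figure D4:**
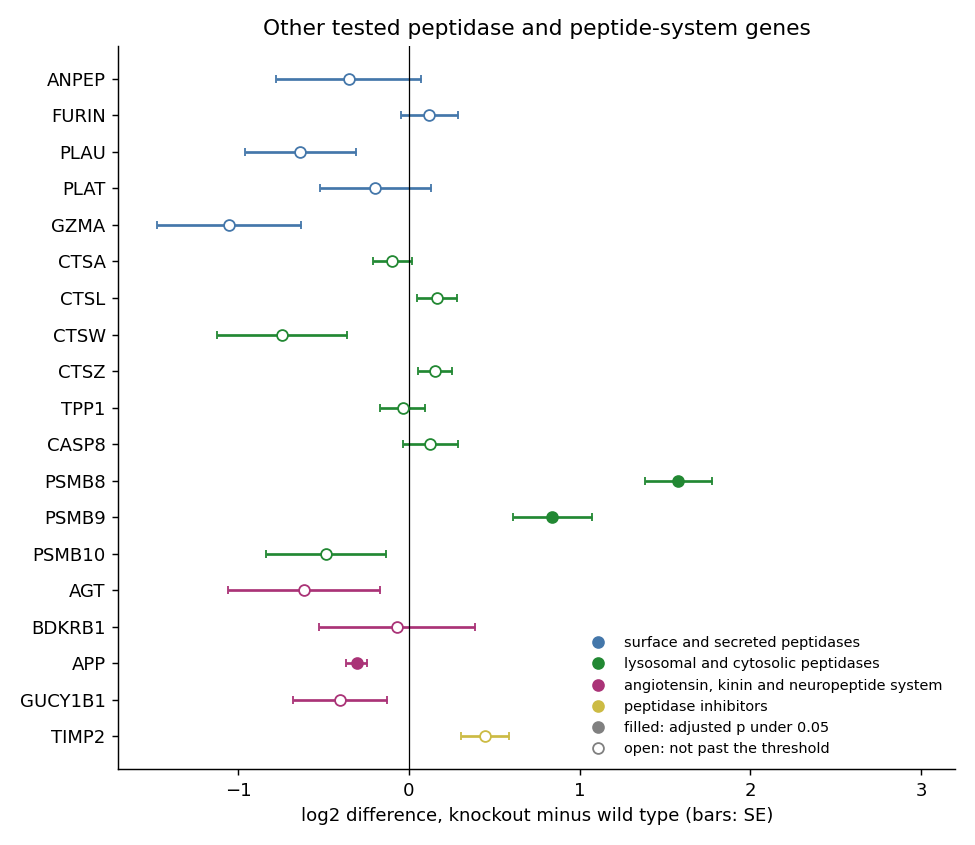
Log2 difference between knockout and wild type with SE for tested genes of the 4 lists around MME and ACE, coloured by list, with filled points for an adjusted p under 0.05 (limma). PSMB8 and PSMB9 lie above 0 and APP at -0.30, and the 5 surface and secreted peptidases matched by symbol are open points.

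Because CD10 and CD143 also mark lymphoid progenitors and endothelium, markers of other cell types were counted. Of 4 pan-haematopoietic genes matched by symbol, PTPRC, ITGB2, ITGAL and LCP1, 0 lay above the background limit in any sample. A separate probe named CD45RA, after a form of the PTPRC product, is outside this count. Its mean was 45.3 normalised counts for the wild-type pair and 44.3 for the knockout pair. Both means exceeded the highest background limit of 25.7, so the PTPRC probe alone does not settle whether RNA of this gene was present. The summed level of 9 B-lineage markers came to 152 and 190 normalised counts for the wild-type pair and 134 and 119 for the knockout pair. The sum was thus lower in both knockout lines than in either wild-type line, and only 1 to 3 of the 9 markers lay above the limit in a sample. Within each genotype the line with more MME had the higher sum, as it did for the endothelial, T and NK cell and myeloid sums below. The pan-haematopoietic sum went the other way in the wild type, at 47.99 in line 1 and 35.07 in line 7. In the knockout it was 38.95 in line 1 and 31.22 in line 5. The line with more MME in each genotype also had more genes above its background limit, 558 against 448 in the wild type and 515 against 409 in the knockout. CD79A and CD79B, the signalling chains of the B cell receptor, stayed below the limit in all 4 samples, and CD27 was the only B-lineage marker above it in all 4. The sum of 3 endothelial markers, PECAM1, VWF and SELE, was 48.0 and 55.6 against 44.5 and 35.4. For 14 T and NK cell markers it was 208 and 261 against 207 and 152, and for 7 myeloid markers 126 and 139 against 116 and 87.4, with 2 of the myeloid markers, CD14 and CD68, above the limit in all 4 samples. The shared probes FCGR1A/B and FCGR3A/B are outside the myeloid sum. They averaged 36.6 and 39.4 normalised counts in the wild type, and 25.2 and 31.8 in the knockout. The panel held no gene that defines HAP1 itself.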

How the data were processed

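NanoString RNA counts of 4 HAP1 lines were used. The deposited table holds a normalised signal per gene probe; R 4.1.1 is the only tool in the submitters' processing notes, and the scaling method is not given in the sources used here. From the values, each sample's whole counts had been multiplied by 1 factor (1.04 and 0.856 for wild-type lines 1 and 7, 1.11 and 1.04 for knockout lines 1 and 5). All gene values (100%) were whole multiples within 0.006, except 4 values of wild-type line 7 at a floor of 1.00, and total gene counts ranged from 448610 to 571767. The 14 control probes were deposited unscaled.

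The fit used limma 3.58.1 in R 4.3.3 (lmFit, eBayes with trend) on log2(value + 1) over 514 genes with a mean of at least 20, Benjamini-Hochberg adjusted, threshold 0.05, two-sided. The log2(value + 1) scale understates changes of low genes. The fit was tested on simulated data. edgeR 4.0.16 was run on the recovered counts as an alternative, as were other scalings, filters, a pseudocount of 10, no trend, background subtraction and leaving out each sample. Symbols matched RefSeq for 768 of 785 probes.

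The members and gene lists were chosen with earlier results of these data known, but the lists were written from gene function. Named genes were the list members past the threshold, filled up to 4 per list by mean, ANPEP, DPP4, ECE1, TAC1, AGT and APP in any case, and the 5 tested genes nearest in profile to each member; some genes under this rule are not reported here. Neighbouring genes, the promoter motifs, the genes that differ most between knockout lines and the weak genes ahead of ACE were chosen after values were seen. The labels name separate lines but no separate cultures, so p-values measure only the spread between these samples, which may be technical.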

Additional observations from a re-analysis of the deposited data

How the results depend on the processing

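MME kept its direction in all 14 alternatives, from 2.46 to 3.26 on the log2 scale. ACE kept its direction in all 13 that could be run on it, from 0.44 to 0.84. A filter at a mean of 50 leaves ACE out. ACE moved to 0.84 with cyclic loess and to 0.74 with the negative controls subtracted, by more than 1 SD between lines of a group (0.15, pooled) but by less than its SE of 0.30. The number of genes past the threshold over the whole table, 42, became 69 with cyclic loess and 4 under limma without the trend, and ranged from 29 to 77 without single samples. The split of 32 higher and 10 lower became 40 and 29 with cyclic loess, 54 and 8 when TBP was left out of the reference genes, and 30 and 47 without knockout line 1, where most calls were lower. Intracellular peptidases past the threshold, 2, became 0 without the trend and 1 with negative controls subtracted, and ranged from 1 to 2 without single samples. The 1 gene of the angiotensin, kinin and neuropeptide list became 0 with positive control scaling and 0 without the trend, and ranged from 1 to 3. Surface peptidases ranged from 0 to 1 without single samples. The 0 inhibitors became 1 with the reference genes without TBP, where TIMP2 had a limma adjusted p of 0.0281, and ranged from 0 to 1 without single samples. A group reduced to 1 sample is taken to vary as the other group does. Causes were not tested. No paired analysis was run. Only line number 1 occurs in both genotypes, and the sample titles do not say that a shared number links lines. Depth limits ACE, with 32 to 44 counts per sample.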
